A study of Mus musculus with 13 samples.

Results

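The 38 genes described here build and police the endoplasmic reticulum, the compartment in which a cell folds the proteins it will secrete. They are chaperones and folding enzymes, stress sensors and transcription factors, degradation factors, translocon subunits, COPII coat and cargo export factors, and retrieval receptors. Members were taken by symbol from the deposited table of gene expression, which held 43346 entries, and all 38 were found. The study profiled RNA of lung fibroblasts of Col1a1-GFP mice, whose green fluorescent protein is made under a collagen promoter. There were 13 libraries in 4 groups: 5 at day 30 and 3 at day 14 after bleomycin, an agent given to cause lung injury and scarring, 3 at day 14 after pneumonectomy, the removal of lung tissue after which the remaining lung grows, and 2 sham libraries. The labels give an age of 8 weeks for the mice of the bleomycin and sham groups, and neither an age in weeks nor a strain for the pneumonectomy group, whose cells they call primary sorted. The header of the deposited table calls all 4 groups young. The labels give no bleomycin dose, no sorting gate, no sex and no day for the sham group. Libraries used 200 ng of total RNA. The labels name an RNA kit for the pneumonectomy samples alone, and a minimum RNA quality number of 6 with 12 PCR cycles for the other samples alone, so that preparation and pneumonectomy cannot be told apart.

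Proteins that enter the endoplasmic reticulum through the Sec61 channel are folded by chaperones such as the Hsp70 protein BiP, the product of Hspa5, and leave in vesicles coated with COPII. When unfolded protein builds up, the sensors IRE1 (Ern1), PERK (Eif2ak3) and ATF6 start the unfolded-protein response, in which XBP1, ATF4 and the cleaved form of ATF6 raise the transcription of chaperones and degradation factors. Fibroblasts secrete large amounts of collagen, a bulky cargo whose export needs MIA3 (TANGO1) together with the COPII coat.

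Values were RPKM, reads divided by gene length and library depth. The depth estimated from the deposited values, in M (mega) reads, was 132.6 to 200.3 M reads at day 30 of bleomycin, 79.9 to 99.9 M reads at day 14 of bleomycin, 69.0 to 75.4 M reads after pneumonectomy and 67.6 to 72.0 M reads in sham. The 37 members tested had at least 238 estimated reads in each library. The fibroblast markers Col1a1, Col1a2, Col3a1, Pdgfra, Dcn, Lum and Fn1 summed to 3569 to 4106 RPKM, 3210 to 4167 RPKM, 2931 to 4603 RPKM and 3068 to 4259 RPKM in the 4 groups in that order, and none of the 7 was at 0 in any group. Single markers differed more than the sum: Dcn was 776 to 1295 RPKM at day 30 of bleomycin, 117 to 169 RPKM at day 14 of bleomycin, 515 to 726 RPKM after pneumonectomy and 1382 to 1856 RPKM in sham. At day 14 of bleomycin against sham, 2 of the 7 were higher and 3 lower, with changes from -3.81 to 1.47. Summed endothelial markers (12 genes) were 38.4 to 45.3 RPKM at day 30 of bleomycin, 375 to 715 RPKM at day 14 of bleomycin, 39.3 to 72.6 RPKM after pneumonectomy and 52.4 to 53.2 RPKM in sham. Macrophage markers (12 genes) summed to 229.9 to 756 RPKM, 144 to 497 RPKM, 24.8 to 39.3 RPKM and 30.3 to 36.0 RPKM in the same order. Plasma cells, which secrete antibody, have 9 markers here that summed to 11.4 to 31.4 RPKM, 22.9 to 31.9 RPKM, 20.9 to 38.1 RPKM and 21.1 to 23.1 RPKM in the same order. Of these, Mzb1 and Tnfrsf17 stayed at or below 0.220 RPKM and 0.0682 RPKM in every library, while Igkc varied between 0.556 and 29.3 RPKM over the libraries, Igj reached 2.37 RPKM, and Sdc1, which other cells also express, was 14.8 to 24.9 RPKM at day 14 of bleomycin and 2.00 to 2.60 RPKM in sham. Epithelial markers (11 genes) summed to 7.37 to 1341 RPKM at day 30 of bleomycin, 4.05 to 19.97 RPKM at day 14 of bleomycin, 46.5 to 513 RPKM after pneumonectomy and 11.1 to 15.5 RPKM in sham. Day 30 library 3 stood apart with Sftpc at 969.6 RPKM, and without it 21 members were higher and 5 lower at day 30 against day 14 of bleomycin, and 2 higher and 4 lower at day 30 against sham. Xist was 19.9 to 29.2 RPKM in the day 30 bleomycin libraries, 15.9 RPKM in sham library 1 and at most 0.0222 RPKM elsewhere. The Y-linked gene Ddx3y was listed at 0 in the 5 day 30 bleomycin libraries, was 9.91 to 10.5 RPKM at day 14 of bleomycin and 15.9 to 23.8 RPKM after pneumonectomy, and was 2.14 and 11.4 RPKM in sham libraries 1 and 2. The day of bleomycin and this difference in sex-linked transcripts cannot be told apart. In bulk libraries, fewer cells of a type and less RNA per cell cannot be told apart either.

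Elements read by the unfolded-protein response stood in the promoters of several members. RefSeq promoters of build GRCm38.p6 (250 bases before and 50 after the start) were on hand for 32 of the 38 genes. Both strands were searched for the endoplasmic reticulum stress element ERSE (CCAAT and CCACG with any 9 bases between them), for ERSE-II (ATTGG and CCACG with any 1 base between them), for the response element UPRE (TGACGTGG) and for the amino acid response element CARE (TGATGNAA). ERSE was present in 8 of the 32 genes and in 39 of all 32851 promoters (0.119%). Most genes with an ERSE, ERSE-II or UPRE match before the start differed between the days of bleomycin. Over all genes, 31.2% were called higher and 28.3% lower in that comparison. These matches are printed with the motif in capitals and 5 flanking bases on each side.
Hspa5: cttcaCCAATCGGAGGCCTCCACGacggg
Hsp90b1, farther element: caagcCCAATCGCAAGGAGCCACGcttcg
Hsp90b1, nearer element: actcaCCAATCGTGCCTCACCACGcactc
Calr: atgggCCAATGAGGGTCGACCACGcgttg
Canx: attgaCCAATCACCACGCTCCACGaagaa
Pdia6: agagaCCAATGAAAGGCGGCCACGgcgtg
Dnajc3: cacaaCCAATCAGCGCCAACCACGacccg
Creld2: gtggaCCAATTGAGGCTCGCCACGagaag
Syvn1: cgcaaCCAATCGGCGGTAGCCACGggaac
Herpud1, ERSE-II: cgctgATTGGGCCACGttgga
Sec24d, UPRE: gcgccTGACGTGGcacta
Kdelr3, UPRE: cgcggTGACGTGGcgggg

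The printed stretches lie at chr2:34772020-34772048 (plus strand) for Hspa5, chr10:86705633-86705661 (minus strand) and chr10:86705528-86705556 (plus strand) for Hsp90b1, and chr8:84847070-84847098 (plus strand) for Calr. Those of Canx, Pdia6 and Dnajc3 lie at chr11:50325795-50325823 (minus strand), chr12:17266486-17266514 (plus strand) and chr14:118937822-118937850 (plus strand). The stretches of Creld2 and Syvn1 lie at chr15:88819515-88819543 (minus strand) and chr19:6046527-6046555 (plus strand). Herpud1, Sec24d and Kdelr3 have theirs at chr8:94386372-94386392 (plus strand), chr3:123267465-123267482 (plus strand) and chr15:79516373-79516390 (minus strand). All lie upstream of the RefSeq start, the 9 ERSE matches from position -212 to position -26 relative to it. Those of Hspa5 and Sec24d fall inside the longer GENCODE M21 model of the gene. ERSE-II occurred in 12 promoters (0.0365%), among them Herpud1 and Dnajb11, UPRE in 222 (0.676%), among them Sec24d, Sec23a and Kdelr3, and CARE in 1304 (3.97%), among them Herpud1 and Trib3. The CARE match of Herpud1 lies at positions -112 to -105 on the opposite strand and is not in capitals in the stretch printed below. The matches of Dnajb11, Sec23a and Trib3 lie past the start. A match shows these letters in the window and not that a factor bound there.

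The 250 bases before the start are shown whole for Herpud1 and Dnajc3, 2 genes with an element whose changes held in 3 comparisons and whose stretch lies outside their GENCODE models. The Herpud1 stretch is chr8:94386179-94386428 and the Dnajc3 stretch is chr14:118937682-118937931, both on the plus strand, with ERSE-II and ERSE in capitals.
Herpud1: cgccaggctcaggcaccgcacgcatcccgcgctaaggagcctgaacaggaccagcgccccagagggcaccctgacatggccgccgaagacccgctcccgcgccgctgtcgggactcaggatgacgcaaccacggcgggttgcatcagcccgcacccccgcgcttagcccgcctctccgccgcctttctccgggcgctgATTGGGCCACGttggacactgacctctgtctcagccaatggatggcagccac
Dnajc3: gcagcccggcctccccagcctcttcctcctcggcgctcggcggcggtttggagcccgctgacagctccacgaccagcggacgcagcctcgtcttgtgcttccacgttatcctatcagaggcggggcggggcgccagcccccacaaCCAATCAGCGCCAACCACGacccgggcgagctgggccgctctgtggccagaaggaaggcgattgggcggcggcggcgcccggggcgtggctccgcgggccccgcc

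**Figure D1:**
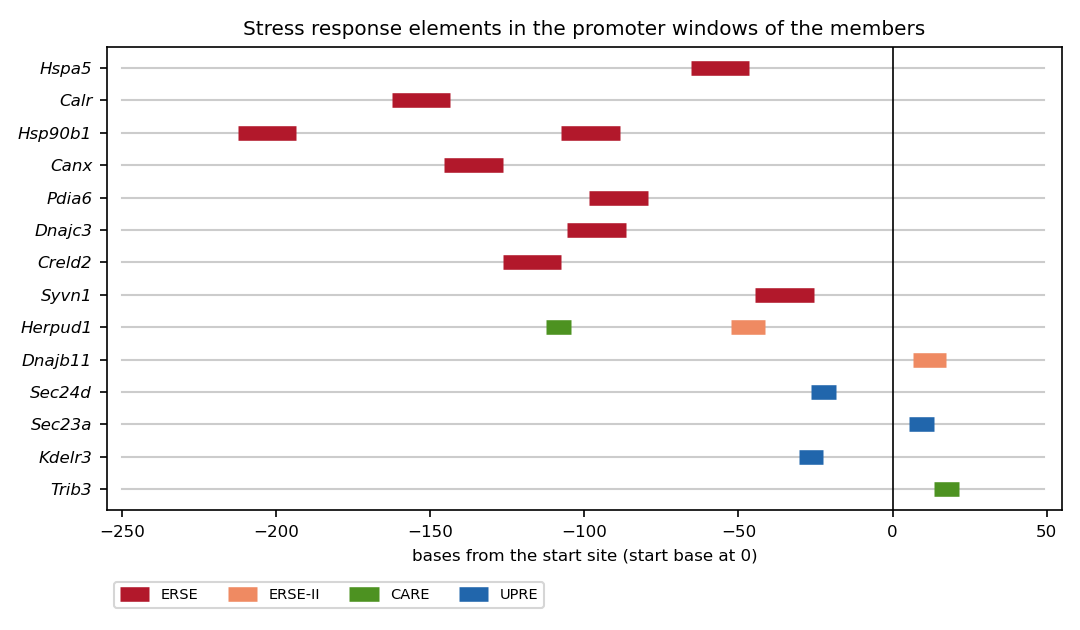
Position of each match in the promoter windows of the members, in bases from the RefSeq start site on the horizontal axis (start base at 0), with 1 line per gene and the colour giving the motif. The 9 ERSE matches lie from -212 to -26, and the matches of Dnajb11, Sec23a and Trib3 lie past it.

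Members were called most often in the comparisons that include day 14 of bleomycin, and so were all genes. Differences are fitted log2 changes on a scale common to all libraries (log2 of scaled RPKM plus 0.1), called where limma's p, adjusted over 12938 genes, was at most 0.05. Of 37 members tested at day 30 against day 14 of bleomycin, 22 were higher and 5 lower, where 31.2% and 28.3% of all genes were called in those directions. At day 14 of bleomycin against sham, 5 members were higher and 16 lower, against 31.6% and 31.5% of all genes. At day 14 of bleomycin against pneumonectomy, 5 were higher and 22 lower, with 35.7% and 35.1% of all genes. After pneumonectomy 4 members were higher than in sham and 0 lower, with 21.5% and 20.8% of all genes. By limma at an unadjusted p of at most 0.05, 4 members were higher and 3 lower there, the lower ones being Sdf2l1, Sec61b and Mia3. At day 30 of bleomycin 4 were higher than in sham and 3 lower, with 14.9% and 13.9% of all genes. The median member change was 0.27 at day 30 against day 14 of bleomycin, -0.28 at day 14 of bleomycin against sham, -0.34 at day 14 of bleomycin against pneumonectomy, 0.07 after pneumonectomy against sham and 0.03 at day 30 of bleomycin against sham, while the median of all genes lay between -0.01 and 0.02. The comparisons that share a group are not independent of each other.

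Scaling matters for these counts, because the factors applied to the deposited values were 1.03 to 1.06 at day 30 of bleomycin, 1.12 to 1.19 at day 14 of bleomycin, 0.82 to 0.85 after pneumonectomy and 0.96 in both sham libraries. On the deposited scale the median of all genes itself moved by 0.47 between day 14 of bleomycin and pneumonectomy, by 0.26 between day 14 of bleomycin and sham, by -0.21 between pneumonectomy and sham, by -0.13 between the days of bleomycin and by 0.11 between day 30 and sham. There, 15 members were higher and 7 lower at day 30 against day 14 of bleomycin, 8 higher and 7 lower at day 14 of bleomycin against sham, 16 higher and 7 lower at day 14 of bleomycin against pneumonectomy, 3 higher and 8 lower after pneumonectomy, and 9 higher and 1 lower at day 30 against sham. With upper-quartile scaling, 4 members were higher and 4 lower after pneumonectomy. Members named below as holding in a comparison kept their call there under every alternative run, scalings and left-out libraries included.

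**Figure D2:**
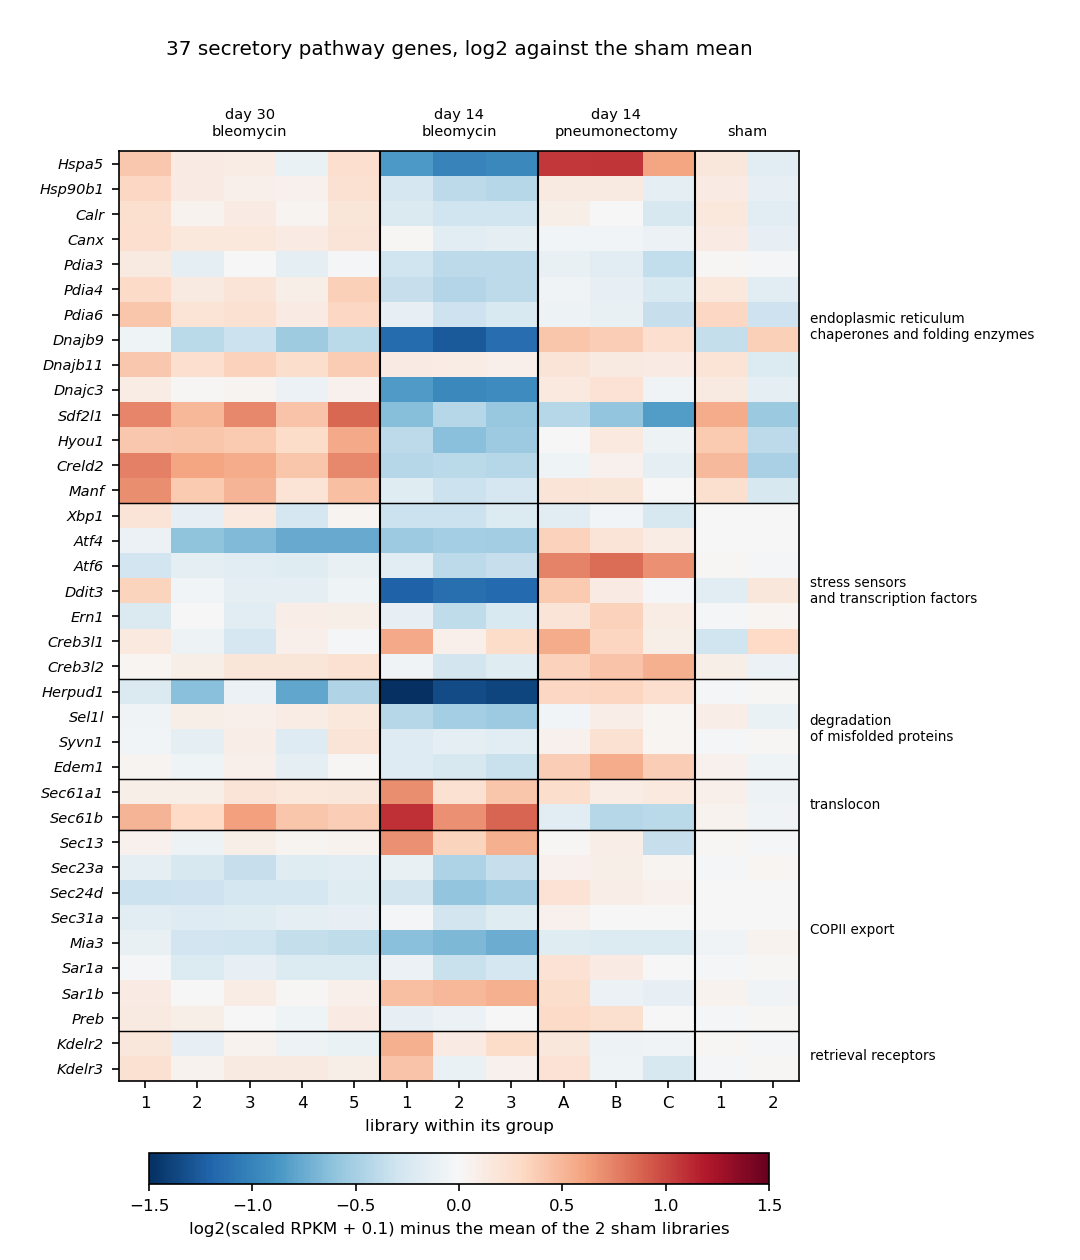
Each of the 37 tested members (rows, grouped by role) in each of the 13 libraries (columns), as log2(scaled RPKM + 0.1) minus the mean of the 2 sham libraries, blue below and red above it. The chaperone rows are blue in the 3 day 14 bleomycin libraries for all genes except Dnajb11 and, in library 1, Canx, and the 2 sham columns differ from each other in rows such as Sdf2l1 and Creld2.

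Chaperones and folding enzymes were higher at day 30 than at day 14 of bleomycin, all 14 of 14 called, with a median change of 0.66 and a range of 0.23 to 1.20. On the deposited scale all 14 changes were still above 0 and 11 were called. Every day 30 library lay above every day 14 library in 13 of the 14, the exception being Dnajb11. At day 14 of bleomycin 7 chaperones were lower than in sham and 0 higher, against 3 lower and 1 higher on the deposited scale. After pneumonectomy Hspa5 was higher than in sham and 0 were lower, against 1 higher and 4 lower on the deposited scale and 1 higher and 2 lower with upper-quartile scaling. At day 30 of bleomycin 3 were higher than in sham, Creld2, Manf and Dnajb11, against 7 on the deposited scale. Over all genes on the common scale, 31.2% were called higher between the days of bleomycin and 31.5% lower at day 14 against sham. After pneumonectomy 21.5% of all genes were higher and 20.8% lower, and 14.9% were higher at day 30 against sham. The common-scale chaperone counts after pneumonectomy and at day 30 against sham lie near or below these shares. The summed endothelial markers given above were higher in the day 14 bleomycin libraries than in all others. Of these, 12 of 12 were lower at day 30 than at day 14. In the same comparison 5 of 6 mesothelial markers were higher and 0 lower, and 4 of 8 pericyte and smooth muscle markers were higher and 1 lower. Of 12 macrophage markers, 11 were higher than in sham at both days of bleomycin. The part of these 4 marker lists in these results was not tested. After pneumonectomy 5 of 6 mesothelial markers were higher than in sham, with sums of 12.5 to 43.5 RPKM after pneumonectomy and 2.02 to 3.13 RPKM in sham. So were 5 of 8 pericyte and smooth muscle markers, with sums of 797 to 1114 RPKM and 428 to 814 RPKM, and 2 of 7 tested epithelial markers. The part of these markers in the changes of Hspa5, Atf6, Edem1 and Creb3l2 after pneumonectomy was not tested.

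Hspa5 (chr2:34771970-34777547 in the GENCODE annotation of GRCm38) encodes BiP, the main Hsp70 chaperone of the compartment. Hspa5 was measured at 172, 140.1, 139, 122 and 158 RPKM at day 30 of bleomycin, 76.7, 72.8 and 76.2 RPKM at day 14 of bleomycin, 214, 216 and 161 RPKM after pneumonectomy and 135 and 106 RPKM in sham. All 3 day 14 bleomycin libraries lay below the other 10, and all 3 pneumonectomy libraries lay above both sham libraries. The change was 1.10 ± 0.14 (SE) at day 30 against day 14 of bleomycin (adjusted p = 3.8e-05), -0.94 ± 0.18 at day 14 of bleomycin against sham (adjusted p = 0.000588), 0.91 ± 0.18 after pneumonectomy against sham (adjusted p = 0.00177) and -1.85 ± 0.16 at day 14 of bleomycin against pneumonectomy (adjusted p = 1.12e-06). All 4 held. Day 30 bleomycin and sham overlapped, and that change was 0.16 ± 0.16 (adjusted p = 0.486).

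Sdf2l1, a co-factor of BiP, gave the largest change between the days of bleomycin among the 37 members, 1.20 ± 0.20 (adjusted p = 0.000375), and this held. Values for Sdf2l1 were 11.4, 9.62, 11.2, 9.29 and 12.8 RPKM in the day 30 bleomycin libraries, 4.68, 5.67 and 5.26 RPKM in the day 14 bleomycin libraries, 4.03, 3.57 and 3.12 RPKM in the pneumonectomy libraries and 9.38 and 4.26 RPKM in the sham libraries. The 5 day 30 libraries lay above all day 14 bleomycin and pneumonectomy libraries, with sham library 1 among the day 30 values and sham library 2 below the day 14 bleomycin values. Creld2, an endoplasmic reticulum protein that is secreted under stress, followed the same order. Day 30 bleomycin libraries held 24.0, 21.2, 20.7, 19.1 and 24.1 RPKM of Creld2, day 14 bleomycin libraries 11.3, 12.0 and 12.2 RPKM, pneumonectomy libraries 10.8, 11.8 and 10.7 RPKM and sham libraries 18.4 and 9.36 RPKM. Its day 30 libraries lay above all 8 others, with changes of 1.03 ± 0.17 against day 14 of bleomycin (adjusted p = 0.000261) and 0.61 ± 0.19 against sham (adjusted p = 0.0346), the second lost without sham library 2.

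Dnajb9 (ERdj4), a J-domain partner of BiP that also holds IRE1 in check, was low at day 14 of bleomycin. Dnajb9 was measured at 25.2, 19.6, 20.8, 18.1 and 20.4 RPKM at day 30 of bleomycin, 12.6, 12.2 and 13.7 RPKM at day 14 of bleomycin, 27.7, 26.8 and 25.7 RPKM after pneumonectomy and 19.0 and 31.1 RPKM in sham. The 3 day 14 bleomycin libraries lay below the other 10, while the sham libraries lay on either side of the day 30 median. Its changes of 0.84 ± 0.14 at day 30 against day 14 of bleomycin (adjusted p = 0.000314), -1.19 ± 0.18 at day 14 of bleomycin against sham (adjusted p = 0.000113) and -1.53 ± 0.16 at day 14 of bleomycin against pneumonectomy (adjusted p = 4.99e-06) held. Dnajc3 (p58IPK), a co-chaperone that also inhibits PERK, averaged 26.7 ± 1.43 RPKM at day 30 of bleomycin (SD, n = 5), 15.3 ± 0.395 at day 14 of bleomycin (n = 3), 22.5 ± 1.68 after pneumonectomy (n = 3) and 24.2 ± 3.06 in sham (n = 2). No other group overlapped its day 14 bleomycin values. The changes were 0.95 ± 0.08, -0.92 ± 0.10 and -1.02 ± 0.09 in the same 3 comparisons, and all held. Dnajb11 (ERdj3), another J-domain partner of BiP, was lowest in pneumonectomy and sham on the deposited scale. Values for Dnajb11 were 15.01, 13.4, 14.3, 13.7 and 15.1 RPKM in the day 30 bleomycin libraries, 13.2, 13.8 and 13.8 RPKM in the day 14 bleomycin libraries, 10.3, 9.78 and 10.2 RPKM in the pneumonectomy libraries and 12.1 and 9.06 RPKM in the sham libraries. All 8 bleomycin libraries lay above the 5 others, and the change at day 30 against sham was 0.33 ± 0.09 (adjusted p = 0.0195), a call lost without sham library 2.

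Among the other chaperones, the rise between the days of bleomycin was 0.93 ± 0.14 for Hyou1, an Hsp70-like nucleotide exchange factor of BiP, 0.71 ± 0.12 for Manf, a secreted protein that binds BiP, 0.60 ± 0.08 for Pdia4 and 0.47 ± 0.13 for Pdia6, both disulfide isomerases. It was 0.52 ± 0.10 for Hsp90b1 (GRP94), the Hsp90 of the compartment, and 0.40 ± 0.10 for Calr (calreticulin), a lectin chaperone. These 6 rises held, while those of Pdia3 (0.33 ± 0.08), the isomerase that works with calreticulin, and Canx (0.27 ± 0.07), the membrane lectin calnexin, were not called on the deposited scale. Calr averaged 143 ± 9.36 RPKM at day 30 of bleomycin, 120.3 ± 1.53 at day 14 of bleomycin, 102 ± 9.63 after pneumonectomy and 121 ± 19.0 in sham. By mean RPKM, Hspa5, Calr, Hsp90b1 and Pdia3 were above 50 in each of the 4 groups, and the other 34 members were below that in at least 1. Against pneumonectomy, day 14 bleomycin libraries were lower for 7 chaperones on the common scale, of which Hspa5, Dnajb9 and Dnajc3 held. Of all genes, 35.1% were called lower in that comparison. On the deposited scale, 6 chaperones were instead higher there and 3 lower.

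**Figure D3:**
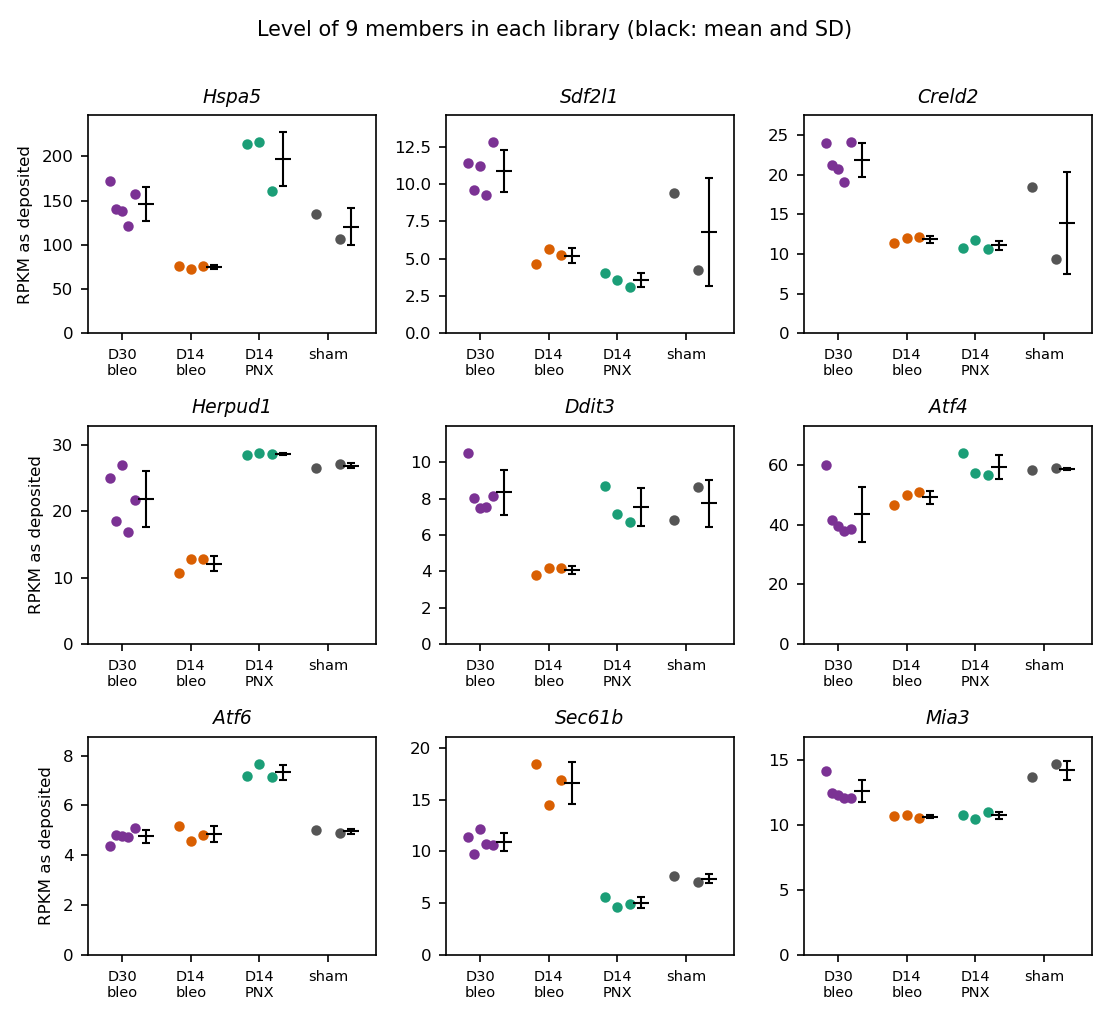
Deposited RPKM of 9 members in each library (coloured points) with the mean and SD of each group in black, from left to right for day 30 bleomycin (D30 bleo, n = 5), day 14 bleomycin (D14 bleo, n = 3), day 14 pneumonectomy (D14 PNX, n = 3) and sham (n = 2). Hspa5, Herpud1 and Ddit3 were lowest in the day 14 bleomycin libraries, Sec61b was highest there, and Atf6 was highest after pneumonectomy.

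Of the 7 stress sensors and transcription factors tested, 3 were higher at day 30 than at day 14 of bleomycin, 3 were lower at day 14 of bleomycin than in sham and 2 were higher after pneumonectomy than in sham. At day 14 of bleomycin 5 were lower than after pneumonectomy. Over all genes the shares in these directions were 31.2%, 31.5%, 21.5% and 35.1%, so that the counts of 3 and 2 of 7 lie near the background. Ddit3 (CHOP), the transcription factor induced late in the response, was low at day 14 of bleomycin. Day 30 bleomycin libraries held 10.5, 8.02, 7.51, 7.55 and 8.16 RPKM of Ddit3, day 14 bleomycin libraries 3.81, 4.199 and 4.21 RPKM, pneumonectomy libraries 8.70, 7.14 and 6.72 RPKM and sham libraries 6.83 and 8.64 RPKM. Its 3 day 14 bleomycin libraries were below all 10 others, and the other 3 groups overlapped. The changes were 1.16 ± 0.12 at day 30 against day 14 of bleomycin (adjusted p = 9.56e-06), -1.17 ± 0.15 at day 14 of bleomycin against sham (adjusted p = 4.67e-05) and -1.33 ± 0.14 at day 14 of bleomycin against pneumonectomy (adjusted p = 5.22e-06), and all held. The annotation has a second overlapping gene model of this symbol, so that reads could be shared between them.

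Atf6, the membrane-bound factor that is cleaved under stress, stood out after pneumonectomy. Atf6 was measured at 4.39, 4.80, 4.76, 4.75 and 5.09 RPKM at day 30 of bleomycin, 5.17, 4.56 and 4.83 RPKM at day 14 of bleomycin, 7.197, 7.67 and 7.13 RPKM after pneumonectomy and 5.03 and 4.89 RPKM in sham. The 3 pneumonectomy libraries lay above the other 10, which overlapped each other. Pneumonectomy against sham gave 0.76 ± 0.08 (adjusted p = 4.08e-05) and day 14 of bleomycin against pneumonectomy -1.06 ± 0.07 (adjusted p = 2.52e-07), and both held. The change at day 14 of bleomycin against sham, -0.30 ± 0.08, was called on the common scale but not on the deposited one. The transcript of Atf6 says nothing of its cleavage.

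Atf4, the factor translated when PERK or another kinase phosphorylates eIF2alpha, was lower in both bleomycin groups than in sham. Values for Atf4 were 59.9, 41.4, 39.5, 37.8 and 38.5 RPKM in the day 30 bleomycin libraries, 46.6, 49.8 and 50.9 RPKM in the day 14 bleomycin libraries, 63.9, 57.1 and 56.6 RPKM in the pneumonectomy libraries and 58.4 and 58.9 RPKM in the sham libraries. Of the bleomycin libraries, 7 lay below both sham libraries, and library 1 of day 30 lay above them. Changes against sham were -0.57 ± 0.15 at day 30 (adjusted p = 0.0175) and -0.53 ± 0.17 at day 14 of bleomycin (adjusted p = 0.0161), and both calls were lost when either sham library was left out. Day 14 of bleomycin against pneumonectomy gave -0.74 ± 0.15 (adjusted p = 0.000825), which was not called on the deposited scale.

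Xbp1, the target of IRE1 splicing, was measured here as a whole gene. Day 30 bleomycin libraries held 33.3, 26.5, 31.7, 24.6 and 30.6 RPKM of Xbp1, day 14 bleomycin libraries 24.9, 26.0 and 28.9 RPKM, pneumonectomy libraries 20.6, 22.4 and 20.2 RPKM and sham libraries 26.9 and 26.8 RPKM. The 2 bleomycin groups and sham overlapped, and the pneumonectomy libraries were the lowest on the deposited scale. Its change at day 30 against day 14 of bleomycin, 0.29 ± 0.10 (adjusted p = 0.0224), was not called on the deposited scale, and gene-level values do not separate the spliced form. Ern1, which encodes IRE1, averaged 3.41 ± 0.382 RPKM at day 30 of bleomycin, 3.27 ± 0.268 at day 14 of bleomycin, 3.26 ± 0.231 after pneumonectomy and 3.22 ± 0.0962 in sham, so that the deposited levels overlapped in all groups. The only call for Ern1 was -0.46 ± 0.10 at day 14 of bleomycin against pneumonectomy, which came to 0.0035 on the deposited scale.

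Creb3l1 (OASIS), a factor needed for bone collagen in mice, was not called in any of the 5 comparisons on the common scale. Creb3l1 was measured at 17.2, 14.6, 12.9, 16.5 and 15.7 RPKM at day 30 of bleomycin, 24.9, 18.5 and 21.7 RPKM at day 14 of bleomycin, 18.3, 15.3 and 13.7 RPKM after pneumonectomy and 11.7 and 17.7 RPKM in sham. On the deposited scale the day 14 bleomycin libraries were above the other 10, and after scaling the change against sham was 0.31 ± 0.20 (adjusted p = 0.194), with the sham libraries far apart. Creb3l1 was called on the deposited scale, higher at day 14 of bleomycin than in sham (0.58, adjusted p = 0.0177) and than after pneumonectomy (0.46, adjusted p = 0.0257), and lower at day 30 than at day 14 (-0.49, adjusted p = 0.0143). Creb3l2 (BBF2H7), its relative, which drives Sec23a in mouse cartilage, gave 0.43 ± 0.09 after pneumonectomy against sham (adjusted p = 0.00276). Values for Creb3l2 were 10.2, 10.6, 11.2, 11.4 and 12.1 RPKM in the day 30 bleomycin libraries, 10.4, 9.25 and 10.2 RPKM in the day 14 bleomycin libraries, 10.1, 10.6 and 11.9 RPKM in the pneumonectomy libraries and 9.79 and 8.72 RPKM in the sham libraries. Pneumonectomy libraries lay above both sham libraries and overlapped those of both bleomycin groups. This call was lost on the deposited scale. Trib3, a pseudokinase induced by CHOP, reached 1 RPKM in 1 library and was not tested, since the filter asked for 2. Trib3 was 0.778, 0.553, 0.799, 0.725 and 0.629 RPKM at day 30 of bleomycin, 0.696, 0.896 and 1.01 RPKM at day 14 of bleomycin, 0.157, 0.212 and 0.157 RPKM after pneumonectomy and 0.592 and 0.602 RPKM in sham. The pneumonectomy libraries were the lowest 3 of the 13. In a fit of all 43346 entries its change was 1.44 ± 0.16 at day 14 of bleomycin against pneumonectomy (adjusted p = 9.64e-05) and -1.22 ± 0.18 after pneumonectomy against sham (adjusted p = 0.00232).

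The 4 degradation factors carry misfolded proteins to the proteasome, and all 4 were lower at day 14 of bleomycin than after pneumonectomy on the common scale. Of these, the calls of Herpud1 and Edem1 held, while on the deposited scale Sel1l came to -0.0481 (adjusted p = 0.547) and Syvn1 to 0.19 (adjusted p = 0.0947). Against sham 3 of the 4 were lower at day 14 of bleomycin, and 3 were higher at day 30 than at day 14. Over all genes, 35.1% were called lower against pneumonectomy, 31.5% lower against sham and 31.2% higher between the days of bleomycin. Herpud1, a membrane organiser of the degradation complex and a strongly induced target of the response, gave the largest fall against sham among the 37 members, -1.42 ± 0.16 (adjusted p = 1.69e-05). Herpud1 was measured at 24.98, 18.6, 27.0, 16.9 and 21.7 RPKM at day 30 of bleomycin, 10.8, 12.8 and 12.8 RPKM at day 14 of bleomycin, 28.5, 28.8 and 28.6 RPKM after pneumonectomy and 26.6 and 27.1 RPKM in sham. The day 14 bleomycin libraries were the lowest and the pneumonectomy libraries the highest of all, and the day 30 libraries lay above those of day 14 of bleomycin, overlapping sham. Against day 14, day 30 of bleomycin gave 0.98 ± 0.13 (adjusted p = 5.79e-05), and day 14 of bleomycin against pneumonectomy gave -1.71 ± 0.15 (adjusted p = 1.26e-06). All 3 held.

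Sel1l, the scaffold of the ubiquitin ligase HRD1, averaged 11.4 ± 0.7096 RPKM at day 30 of bleomycin, 8.52 ± 0.0630 at day 14 of bleomycin, 8.82 ± 0.433 after pneumonectomy and 9.99 ± 0.911 in sham. Its changes of 0.57 ± 0.06 between the days of bleomycin and -0.49 ± 0.08 at day 14 against sham held. Syvn1, which encodes HRD1 itself and carries an ERSE, was called only at day 14 of bleomycin against pneumonectomy (-0.28 ± 0.09). Edem1, a lectin that hands glycoproteins to degradation, rose after pneumonectomy. Day 30 bleomycin libraries held 8.33, 7.66, 8.45, 7.37 and 8.37 RPKM of Edem1, day 14 bleomycin libraries 7.58, 7.62 and 7.33 RPKM, pneumonectomy libraries 8.26, 9.39 and 8.62 RPKM and sham libraries 7.77 and 7.15 RPKM. Pneumonectomy libraries lay above sham and day 14 bleomycin and overlapped day 30. The changes were 0.43 ± 0.08 against sham (adjusted p = 0.00188) and -0.69 ± 0.07 for day 14 of bleomycin against pneumonectomy (adjusted p = 7.44e-06), and both held.

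**Figure D4:**
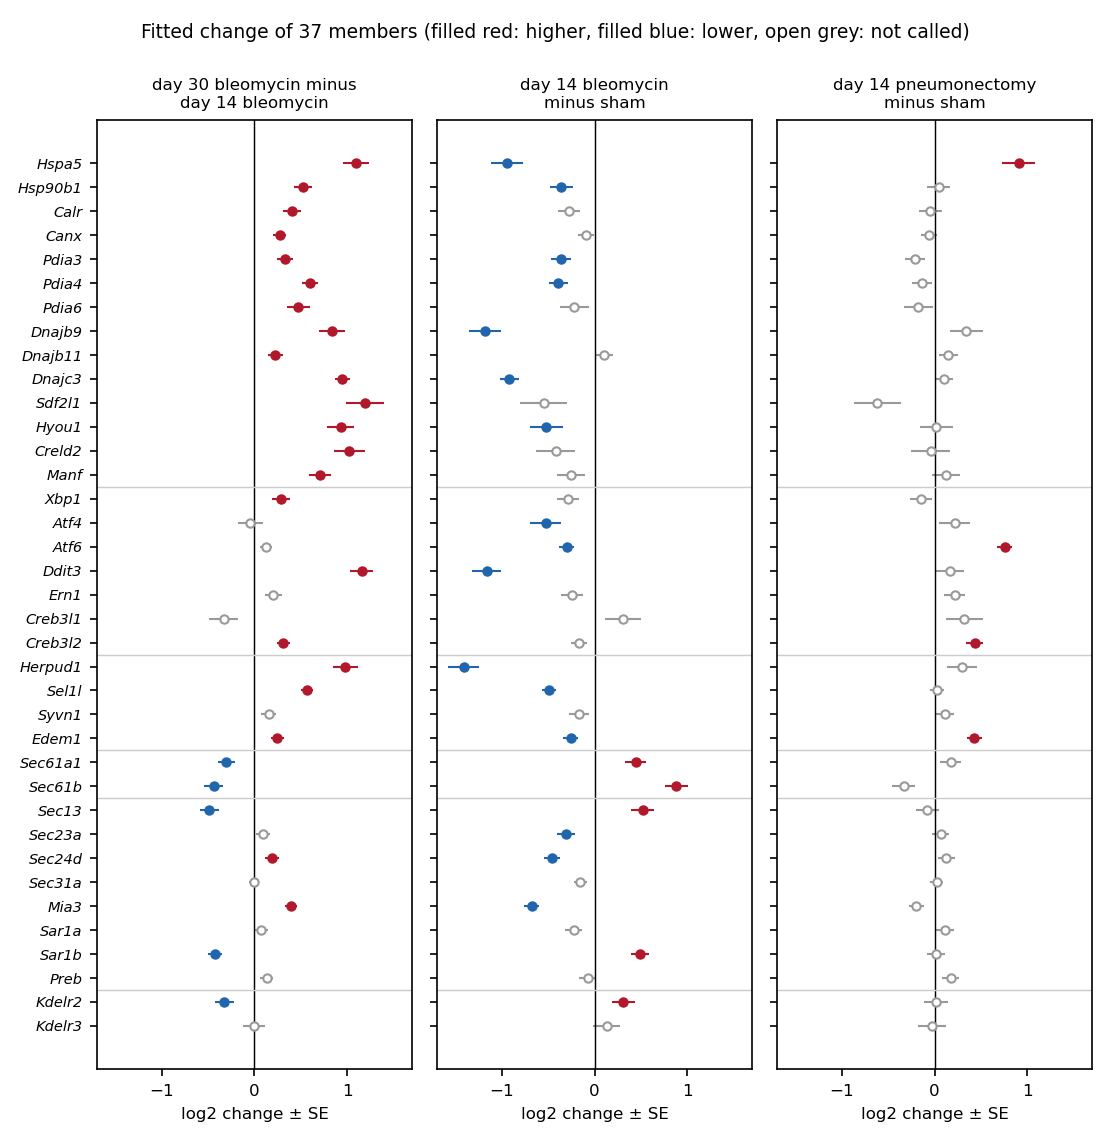
Fitted log2 change with its SE on the horizontal axis for the 37 tested members, grouped by role, for day 30 against day 14 of bleomycin (left), day 14 of bleomycin against sham (middle) and day 14 of pneumonectomy against sham (right). Filled points were called (red higher, blue lower) and open grey points were not: the 14 chaperones at the top are all red on the left, where Sec61a1, Sec61b, Sec13, Sar1b and Kdelr2 are blue.

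The translocon subunits moved opposite to the chaperones in the bleomycin groups. Both were higher at day 14 of bleomycin than in sham and than after pneumonectomy, and both were lower at day 30 than at day 14. The shares of all genes called in these directions were 31.6%, 35.7% and 28.3%. Sec61b, the beta subunit of the channel, separated all 4 groups. Values for Sec61b were 11.3, 9.71, 12.2, 10.7 and 10.6 RPKM in the day 30 bleomycin libraries, 18.4, 14.4 and 16.9 RPKM in the day 14 bleomycin libraries, 5.61, 4.64 and 4.94 RPKM in the pneumonectomy libraries and 7.65 and 7.08 RPKM in the sham libraries. In order of level, day 14 of bleomycin was followed by day 30, sham and pneumonectomy, with no overlap on the deposited scale. Its change was -0.44 ± 0.10 at day 30 against day 14 of bleomycin (adjusted p = 0.00266), 0.88 ± 0.13 at day 14 of bleomycin against sham (adjusted p = 8.11e-05) and 1.22 ± 0.11 at day 14 of bleomycin against pneumonectomy (adjusted p = 2.13e-06), and these held. Day 30 against sham gave 0.44 ± 0.12 (adjusted p = 0.0153), a call lost without sham library 2. Sec61a1, the pore itself, followed. Sec61a1 was measured at 17.9, 17.7, 19.1, 18.9 and 19.4 RPKM at day 30 of bleomycin, 29.4, 22.1 and 25.8 RPKM at day 14 of bleomycin, 16.0, 14.4 and 15.3 RPKM after pneumonectomy and 16.4 and 14.8 RPKM in sham. The day 14 bleomycin libraries were the highest 3, with changes of -0.31 ± 0.09 at day 30 against them (adjusted p = 0.0122) and 0.45 ± 0.11 for them against sham (adjusted p = 0.00453). The first change held, while the call against sham was lost under an alternative run (adjusted p = 0.0591). Against pneumonectomy the change of Sec61a1 was 0.27, a call that leaving out a library could remove (adjusted p up to 0.103).

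Of the 8 export genes of the COPII coat, Sec13 and Sar1b were higher and Sec23a, Sec24d and Mia3 lower at day 14 of bleomycin than in sham, counts near the 31.6% and 31.5% of all genes called in those directions. Sec13, a cage subunit that also sits in nuclear pores, gave 18.6, 16.6, 18.7, 18.3 and 18.9 RPKM in the day 30 bleomycin libraries, 30.8, 25.1 and 29.7 RPKM in the day 14 bleomycin libraries, 14.2, 14.96 and 11.5 RPKM in the pneumonectomy libraries and 16.5 and 16.3 RPKM in the sham libraries. The 4 groups did not overlap on the deposited scale, with day 14 of bleomycin highest and pneumonectomy lowest. Changes were -0.49 ± 0.10 at day 30 against day 14 of bleomycin (adjusted p = 0.00145), 0.52 ± 0.13 at day 14 against sham (adjusted p = 0.00354) and 0.60 ± 0.11 at day 14 of bleomycin against pneumonectomy (adjusted p = 0.00052). Sar1b, a GTPase that starts coat assembly, had a similar order. Day 30 bleomycin libraries held 7.43, 6.75, 7.26, 6.91 and 7.31 RPKM of Sar1b, day 14 bleomycin libraries 9.99, 10.8 and 11.3 RPKM, pneumonectomy libraries 6.45, 5.05 and 5.12 RPKM and sham libraries 6.498 and 6.05 RPKM. Day 14 bleomycin libraries were the highest 3 and day 30 libraries lay above all sham and pneumonectomy libraries. The changes of Sar1b were -0.43 ± 0.08, 0.49 ± 0.10 and 0.48 ± 0.09 in the same comparisons. All 6 changes of Sec13 and Sar1b held.

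Mia3 (TANGO1), which links collagen cargo to the coat, went the other way. Mia3 was measured at 14.1, 12.4, 12.3, 12.0 and 12.1 RPKM at day 30 of bleomycin, 10.6, 10.8 and 10.5 RPKM at day 14 of bleomycin, 10.7, 10.4 and 11.0 RPKM after pneumonectomy and 13.7 and 14.7 RPKM in sham. The 3 day 14 bleomycin libraries lay below all day 30 and sham libraries and overlapped the pneumonectomy libraries on the deposited scale. Its change was 0.39 ± 0.06 at day 30 against day 14 of bleomycin (adjusted p = 0.00018) and -0.68 ± 0.08 at day 14 of bleomycin against sham (adjusted p = 1.3e-05), and both held. Day 30 against sham was -0.29 ± 0.07 (adjusted p = 0.0116), a call lost without sham library 2. Sec24d, a cargo-binding coat subunit needed for collagen export in zebrafish, was lower in both bleomycin groups than in sham. Values for Sec24d were 20.3, 20.2, 21.0, 21.3 and 22.9 RPKM in the day 30 bleomycin libraries, 22.7, 19.0 and 20.4 RPKM in the day 14 bleomycin libraries, 23.4, 21.5 and 21.9 RPKM in the pneumonectomy libraries and 23.4 and 23.6 RPKM in the sham libraries. Both sham libraries lay above all 8 bleomycin libraries and overlapped the pneumonectomy libraries. Against sham the changes of Sec24d were -0.27 ± 0.08 at day 30 (adjusted p = 0.0309) and -0.46 ± 0.09 at day 14 of bleomycin (adjusted p = 0.000878), neither of them called on the deposited scale.

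The remaining export genes moved less. Sec23a, the partner of the Sec24 proteins, was lower at day 14 of bleomycin than in sham (-0.31 ± 0.09, adjusted p = 0.0138) and than after pneumonectomy (-0.37 ± 0.08, adjusted p = 0.00189). Its change against sham was -0.04 on the deposited scale (adjusted p = 0.729), and its call was lost when either sham library was left out. Sec31a, which forms the cage with Sec13, had its only call at day 14 of bleomycin against pneumonectomy (-0.18 ± 0.06), and so did Sar1a (-0.34 ± 0.09), the sister of Sar1b, and Preb (Sec12, -0.25 ± 0.08), the exchange factor that loads SAR1. On the deposited scale these 4 genes were each above 0 in that comparison, at 0.10 for Sec23a, 0.29 for Sec31a, 0.14 for Sar1a and 0.22 for Preb. Sar1a averaged 46.2 ± 2.43 RPKM at day 30 of bleomycin, 48.98 ± 3.09 at day 14 of bleomycin, 44.5 ± 2.60 after pneumonectomy and 47.4 ± 1.15 in sham.

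The KDEL receptors return escaped chaperones from the Golgi apparatus. Kdelr2 averaged 30.8 ± 2.64 RPKM at day 30 of bleomycin, 43.0 ± 5.18 at day 14 of bleomycin, 25.1 ± 2.28 after pneumonectomy and 28.6 ± 0.5684 in sham. Its changes were -0.33 ± 0.10 at day 30 against day 14 of bleomycin (adjusted p = 0.0161) and 0.31 ± 0.13 at day 14 against sham (adjusted p = 0.0493). The first call could be lost by leaving out a library, and the second was lost when either sham library was left out. Kdelr3 was not called in any of the 5 comparisons on the common scale. Day 30 bleomycin libraries held 22.8, 20.0, 21.2, 21.4 and 21.1 RPKM of Kdelr3, day 14 bleomycin libraries 28.3, 20.3 and 23.5 RPKM, pneumonectomy libraries 18.0, 14.7 and 13.5 RPKM and sham libraries 17.7 and 18.3 RPKM. Every bleomycin library lay above every sham and pneumonectomy library on the deposited scale, while the scaled change at day 14 of bleomycin against sham was 0.13 ± 0.15 (adjusted p = 0.463). Without scaling, that is on the deposited scale, Kdelr3 was called higher at day 14 of bleomycin than in sham (0.40, adjusted p = 0.0198) and than after pneumonectomy (0.64, adjusted p = 0.000393).

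The 2 sham libraries disagreed on the chaperones. Of the 14, 13 were higher in sham library 1 than in sham library 2. Sdf2l1 was 9.38 RPKM in library 1 and 4.26 RPKM in library 2, a ratio of 2.20. Creld2 was 18.4 and 9.36 RPKM, Hyou1 12.5 and 7.17 RPKM and Pdia6 33.5 and 21.7 RPKM in libraries 1 and 2. Dnajb9 ran the other way, at 19.0 and 31.1 RPKM. Sham library 1 fell within the range of the 5 day 30 libraries for 8 of the 14 chaperones, and sham library 2 for 1 of the 14. At day 30 of bleomycin against sham, 11 members were called without sham library 1 and 0 without sham library 2, so that none of the 7 calls of that comparison held. Sham library 1 is also the sham library with Xist at 15.9 RPKM, and the part of this in the difference was not tested. Of the 24 other members, Creb3l1 alone was over 1.5-fold apart, at 11.7 and 17.7 RPKM.

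**Figure D5:**
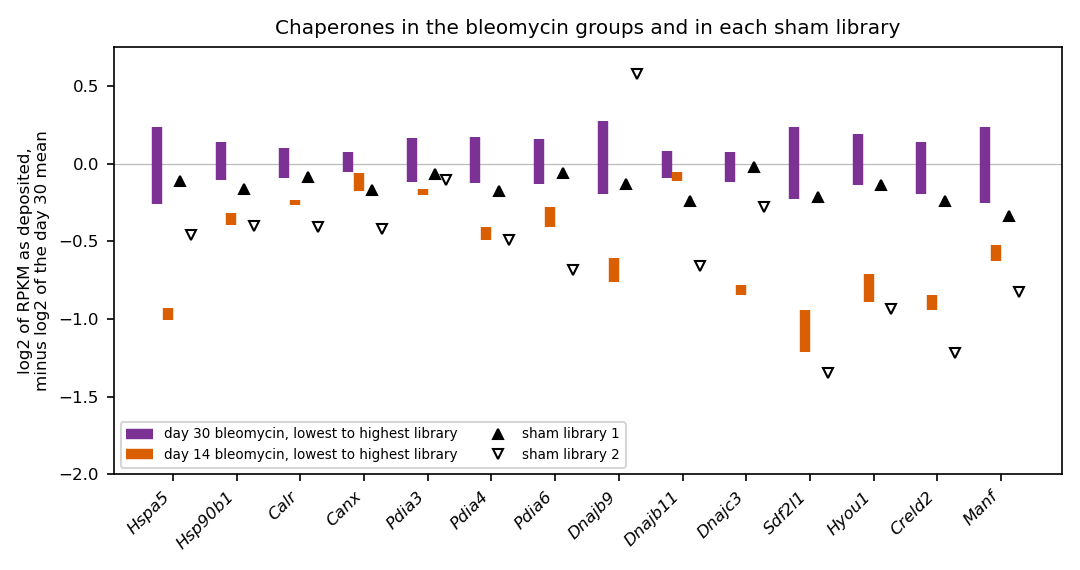
The 14 chaperones, as log2 of the deposited RPKM minus log2 of the day 30 mean, with the range of the 5 day 30 and 3 day 14 bleomycin libraries as bars and each sham library as a triangle. Sham library 1 lies in or near the day 30 bars, while sham library 2 lies inside the bar for Pdia3, above it for Dnajb9 and below it for the other genes.

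Other genes of the same pathway, listed by function, did not all follow the members. Their counts are to be read against the share of all genes called higher and lower, which was 31.2% and 28.3% at day 30 against day 14 of bleomycin, 31.6% and 31.5% at day 14 of bleomycin against sham, 35.7% and 35.1% at day 14 of bleomycin against pneumonectomy, 21.5% and 20.8% after pneumonectomy against sham and 14.9% and 13.9% at day 30 of bleomycin against sham. Of 23 folding enzymes and collagen chaperones outside the 38, 8 were higher and 6 lower at day 30 against day 14 of bleomycin, 5 higher and 10 lower at day 14 of bleomycin against sham, 4 higher and 10 lower at day 14 of bleomycin against pneumonectomy, 6 higher and 1 lower after pneumonectomy against sham and 2 higher and 3 lower at day 30 of bleomycin against sham. Pdia5, a disulfide isomerase, averaged 5.30 ± 0.315 RPKM at day 30 of bleomycin and 11.5 ± 1.81 RPKM at day 14 (change -0.94 ± 0.12, adjusted p = 3.25e-05), opposite to the member isomerases. Serpinh1 (HSP47), the collagen chaperone, was not called in any comparison, with a change of 0.11 ± 0.11 between the days of bleomycin. Ppic, a secreted-pathway prolyl isomerase, averaged 129.9 ± 4.59 RPKM at day 14 of bleomycin and 30.4 ± 3.79 RPKM in sham (change 1.83 ± 0.22, adjusted p = 2.23e-05). Of 14 further degradation genes tested, 4 were higher and 3 lower at day 30 against day 14 of bleomycin, 2 higher and 4 lower at day 14 of bleomycin against sham, 2 higher and 6 lower at day 14 of bleomycin against pneumonectomy, 4 higher and 2 lower after pneumonectomy against sham and 1 higher and 0 lower at day 30 of bleomycin against sham. Os9, a lectin of the HRD1 complex, averaged 27.1 ± 1.11 RPKM at day 30 and 19.7 ± 0.745 RPKM at day 14 of bleomycin (change 0.61 ± 0.07), in the direction of Sel1l and Herpud1.

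Of 20 tested genes of PERK signalling and the integrated stress response, 5 were higher and 10 lower at day 30 against day 14 of bleomycin. At day 14 of bleomycin 10 were higher and 7 lower than in sham, and 9 higher and 9 lower than after pneumonectomy. After pneumonectomy 7 were higher and 6 lower than in sham, and at day 30 of bleomycin 5 were higher and 3 lower than in sham. Eif2ak3, the gene of PERK, averaged 3.41 ± 0.0821 RPKM at day 14 of bleomycin and 6.08 ± 0.712 RPKM in sham (change -1.08 ± 0.09, adjusted p = 1.15e-06). Atf5, a factor downstream of eIF2alpha phosphorylation, averaged 42.3 ± 8.28 RPKM at day 30 and 15.8 ± 0.307 RPKM at day 14 of bleomycin (change 1.55 ± 0.12, adjusted p = 9.67e-07), the direction of Ddit3. The median change of the 20 genes in that comparison was -0.25, the opposite direction. Asns, asparagine synthetase and a target of ATF4, averaged 3.44 ± 0.282 RPKM at day 14 of bleomycin and 0.324 ± 0.0849 RPKM in sham (change 2.82 ± 0.20, adjusted p = 3.64e-07). Cebpb, a transcription factor of the acute response, averaged 46.4 ± 4.26 RPKM after pneumonectomy and 14.03 ± 0.571 RPKM in sham (change 1.92 ± 0.17, adjusted p = 1.29e-05).

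Of 29 further translocon and processing genes tested, 8 were higher and 6 lower at day 30 against day 14 of bleomycin, 10 higher and 7 lower at day 14 of bleomycin against sham, 11 higher and 5 lower at day 14 of bleomycin against pneumonectomy, 3 higher and 6 lower after pneumonectomy against sham and 5 higher and 2 lower at day 30 of bleomycin against sham. Spcs1, a signal peptidase subunit, averaged 20.1 ± 1.17 RPKM at day 14 of bleomycin and 10.3 ± 0.150 RPKM in sham (change 0.68 ± 0.08, adjusted p = 1.96e-05), the direction of Sec61b. Of 21 further COPII and cargo receptor genes tested, 9 were higher and 5 lower at day 30 against day 14 of bleomycin, 5 higher and 9 lower at day 14 of bleomycin against sham, 7 higher and 7 lower at day 14 of bleomycin against pneumonectomy, 0 higher and 5 lower after pneumonectomy against sham and 0 higher and 4 lower at day 30 of bleomycin against sham. Sec16b, an organiser of exit sites, averaged 5.73 ± 0.730 RPKM at day 30 and 3.06 ± 0.131 RPKM at day 14 of bleomycin (change 1.02 ± 0.15, adjusted p = 0.000132), the direction of Mia3. Of 15 COPI and retrieval genes, 0 were higher and 4 lower at day 30 against day 14 of bleomycin, 6 higher and 2 lower at day 14 of bleomycin against sham, 6 higher and 3 lower at day 14 of bleomycin against pneumonectomy, 1 higher and 3 lower after pneumonectomy against sham and 0 higher and 0 lower at day 30 of bleomycin against sham. Copg2, a COPI coat subunit, averaged 3.45 ± 0.156 RPKM at day 30 and 8.77 ± 1.76 RPKM at day 14 of bleomycin (change -1.15 ± 0.09, adjusted p = 1.22e-06), the direction of Sec13 and Sar1b.

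Set beside the promoters, 9 of the 10 members with an ERSE or ERSE-II were higher at day 30 than at day 14 of bleomycin and 0 lower, with a median change of 0.50, Syvn1 being the member not called. Of the 21 other tested members with a promoter window, 11 were higher and 3 lower, with a median of 0.20. Apart from Syvn1 and Herpud1, the 10 are chaperones, and all 14 chaperones were higher, whether or not an element was found. The median change of all 14 chaperones was 0.66. Their largest change, 1.20, was that of Sdf2l1, in which no element was found. Their smallest, 0.23, was that of Dnajb11, which has an ERSE-II. The part of role in the difference between the medians of 0.50 and 0.20 was not tested. At day 14 of bleomycin against sham, 0 of the 10 were higher and 4 lower (median -0.32), and 3 of the 21 were higher and 10 lower (median -0.29). After pneumonectomy against sham 1 of the 10 was higher and 0 lower (median 0.07), against 2 and 0 of the 21 (median 0.03). Over all genes, 31.2% were called higher and 28.3% lower between the days of bleomycin. At day 14 of bleomycin against sham the shares were 31.6% and 31.5%, and after pneumonectomy against sham 21.5% and 20.8%. The counts are descriptions of these members, whose windows were searched with earlier results of the data known. Pdia3, Pdia4, Dnajb9, Sdf2l1, Ddit3, Sel1l, Xbp1, Creb3l2, Edem1 and Mia3 had none of the 4 motifs in their windows. These genes were also higher at day 30 than at day 14 of bleomycin.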

How the data were processed

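RNA sequencing of 13 libraries gave a table of RPKM values made and deposited by the authors for 43346 entries, per the file headers. The genome was mm10 (GRCm38), per the submitters' processing notes. The aligner, counter and annotation are not given in the sources used here. Of the columns of values, 0 were left unused. Letters A, B and C stand for the 3 pneumonectomy columns, which are unnumbered.

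RPKM were divided by trimmed-mean factors (30% of ratios and 5% of levels trimmed) and tested as log2(scaled RPKM + 0.1) with limma 3.58.1 in R 4.3.3, using group means of all 13 libraries, an intensity trend and robust weights. The 12938 genes that reached 1 RPKM in 2 or more libraries were tested, two-sided, with Benjamini-Hochberg adjustment at 0.05. This scale understates changes of low genes. The fit was tested on simulated data. Nothing in the labels says that libraries of a group came from separate animals, so p-values measure the spread between these libraries, which may be technical. Depth was estimated from the steps of low RPKM values and GENCODE M21 exon lengths. The members and gene lists were chosen with earlier results of these data known. Values in every library are given for up to 4 called members per direction and comparison with the largest change, a higher mean of 5 RPKM or more and no overlap, and for a panel of 9 (Hspa5, Xbp1, Atf4, Ddit3, Creb3l1, Creb3l2, Sec24d, Mia3, Kdelr3). Of other pathway genes, examples come from up to 3 called genes with the smallest p in each list and comparison, and Serpinh1 was chosen after its values were seen. Alternatives were a pseudocount of 1, no filter, the deposited scale, upper-quartile scaling, the compared groups alone, a plain variance model, each library left out, a replicate block and, chosen after seeing the data, removal of a gene length trend.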

Additional observations from a re-analysis of the deposited data

Results flagged for a closer look

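In 4 genes 1 of the 5 day 30 bleomycin libraries stood far from the others, a gap that chance gives in about 1 in 20 groups, and 38 genes were looked at. Atf4 was 59.9 RPKM in library 1, with 37.8 to 41.4 RPKM in the other libraries of that group. Ddit3 was 10.5 RPKM in library 1, with 7.51 to 8.16 RPKM in the others. Mia3 was 14.1 RPKM in library 1, with 12.0 to 12.4 RPKM in the others. Sec13 was 16.6 RPKM in library 2, with 18.3 to 18.9 RPKM in the others.

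In 3 genes the changes against sham at day 14 of bleomycin and at day 14 of pneumonectomy were both called and had opposite signs, and the difference between these changes, which is the comparison of the 2 groups themselves, was called by limma. It was -1.85 for Hspa5 (-0.94 after bleomycin and 0.91 after pneumonectomy, adjusted p = 1.12e-06), -1.06 for Atf6 (-0.30 and 0.76, adjusted p = 2.52e-07) and -0.69 for Edem1 (-0.26 and 0.43, adjusted p = 7.44e-06). Both changes share the sham libraries. For Atf6 and Edem1 the change at day 14 of bleomycin against sham came to -0.03 (adjusted p = 0.712) and 0.0106 (adjusted p = 0.913) on the deposited scale, and both calls were lost without sham library 1 (adjusted p = 0.0642 and 0.196). That of Edem1 was also lost without day 14 bleomycin library 2 (adjusted p = 0.0555) or 3 (adjusted p = 0.101).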

How the results depend on the processing

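Of 1209 alternative values of called members, 1024 kept direction and call, 174 lost the call and 11 changed sign. Of 1344 of uncalled members, 67 became called in the same direction and 10 in the opposite direction. At day 30 of bleomycin against sham, called members numbered 1 without the filter, 3 with the compared groups only and 0 with the replicate block. On the deposited scale the member median was -0.0037 at day 14 of bleomycin against sham, -0.1376 after pneumonectomy against sham (11 called), 0.1501 at day 30 against sham, 0.1375 at day 14 of bleomycin against pneumonectomy and 0.1155 between the days of bleomycin. With upper-quartile scaling it was -0.0452 after pneumonectomy against sham (8 called) and -0.217 at day 14 of bleomycin against pneumonectomy. Leaving out 1 library at a time gave 13 to 24 called members and medians of -0.3219 to -0.1617 at day 14 of bleomycin against sham, 4 to 9 and -0.0083 to 0.1347 after pneumonectomy against sham, 0 to 11 and 0.0002 to 0.0641 at day 30 against sham, 21 to 27 and -0.3868 to -0.2844 at day 14 of bleomycin against pneumonectomy, and 24 to 27 and 0.2191 to 0.2763 between the days of bleomycin. Signs turned on the deposited scale for Edem1 at day 14 of bleomycin against sham (0.0106), Sec31a after pneumonectomy (-0.1793) and, at day 14 of bleomycin against pneumonectomy, Hsp90b1 (0.0742), Calr (0.2478), Canx (0.439), Pdia3 (0.3244), Pdia4 (0.2193), Pdia6 (0.4319), Dnajb11 (0.4283), Manf (0.0904), Xbp1 (0.3363), Ern1 (0.0035), Creb3l1 (0.4583), Syvn1 (0.1925), Sec23a (0.0995), Sec31a (0.2948), Sar1a (0.1375) and Preb (0.2157). With the length trend removed, Sec31a was 0.0209 there. After pneumonectomy against sham, Creld2 was 0.4637 without sham library 1 and Hyou1 -0.3792 without sham library 2. The cause was not tested. With the replicate block, 15 members were called at day 14 of bleomycin against sham (4 higher, 11 lower) and 23 between the days of bleomycin (19 higher, 4 lower). Deviations of same-numbered libraries from their group means correlated between -0.127 and 0.136. With groups this small, such values cannot show whether the numbers pair the libraries. The pneumonectomy columns could not be linked to the numbers in their titles. The 2 sham libraries, which differ on the chaperones, limit the precision of every change against sham.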
